A study of Mus musculus with 6 samples.

Results

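The SLC25 family of mitochondrial carriers was followed in hearts of male C57BL/6 mice aged 8 weeks, 21 days after a myocardial infarction made by tying off the left anterior descending coronary artery. The treated mice had received miR-433 antagomir, which is an antisense oligonucleotide that inhibits this microRNA, and the control mice a scrambled sequence, each at 80 mg/kg through the tail vein on 3 consecutive days. All hearts of both groups had therefore been infarcted and exposed to an injected oligonucleotide, and no uninjured heart was used here. Total RNA of 3 antagomir samples and 3 control samples was labelled with Cy3 and hybridised to 1-colour Agilent arrays. The study asked whether blocking miR-433 limits scarring of the heart. The labels say neither whether the 6 arrays stand for 6 mice nor which part of the heart was taken, so p-values measure the spread between these 6 samples only. Members were all gene probes whose name in the array files starts with Slc25a, together with Ucp1, Ucp2 and Ucp3. This gave 47 genes, of 36152 gene names on the array, measured by 56 probes in 65 spots. Of these, 41 genes had a probe called well above background by the scanner software on 3 or more arrays and were tested, among 22991 genes tested in all.

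Carriers of this family are proteins of the inner mitochondrial membrane, which is otherwise closed to charged metabolites, and each moves a small set of substrates across it, often by exchange. In heart muscle they bring in ADP and phosphate for ATP synthase and send out ATP, carry reducing equivalents through the malate-aspartate shuttle, and admit acylcarnitines for fatty acid oxidation. The uncoupling proteins belong to the same family, and Ucp1 lets protons back across the membrane in brown fat.

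Both mature strands of the mouse microRNA are shown because the antagomir is directed at this microRNA and the labels do not name the strand. The sequences are RefSeq's (GRCm38.p6), on the plus strand of chromosome 12, chr12:109591729-109591750 for the 5p and chr12:109591781-109591802 for the 3p strand. Capitals mark the seed, bases 2 to 8.

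mmu-miR-433-5p: uACGGUGAgccugucauuauuc

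mmu-miR-433-3p: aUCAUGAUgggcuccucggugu

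The probes of 5 carriers are shown because the results below turn on them, with positions of the array design (mm9). They are Slc25a39, which had the smallest p of the family (chr11:102266350-102267022, minus strand), Slc25a4, the heart's main ADP/ATP carrier (chr8:47292828-47292887, minus strand), and Ucp3 (chr7:107630399-107630458, plus strand). The other two are Slc25a44, a carrier of branched-chain amino acids whose probes differed in sign (chr3:88224424-88224483, minus strand), and Ucp1 (chr8:85821788-85821847, plus strand). Capitals mark runs of at least 4 purines (A or G), since the purine share of some probes is given below beside their signals. Each probe has 60 bases, and that of Slc25a39 covers 673 bases of the genome, so its ends lie on either side of sequence that it skips.

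Slc25a39: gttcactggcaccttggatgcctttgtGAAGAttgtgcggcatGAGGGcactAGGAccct

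Slc25a4: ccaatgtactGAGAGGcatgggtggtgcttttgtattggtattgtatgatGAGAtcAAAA

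Ucp3: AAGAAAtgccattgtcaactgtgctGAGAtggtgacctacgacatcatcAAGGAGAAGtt

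Slc25a44: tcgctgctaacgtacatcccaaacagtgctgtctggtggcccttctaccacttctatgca

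Ucp1: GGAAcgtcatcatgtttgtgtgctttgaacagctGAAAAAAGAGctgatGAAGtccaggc

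Some arrays stood apart. Antagomir array 3 had 73.6% of gene spots well above background, against 55.2% and 56.2% on antagomir arrays 1 and 2 and 57.7% to 58.5% on the control arrays. Control array 2 was the lowest control for 28 of the 41 carriers, against 48.9% of all genes, and the highest control for 9. Control arrays 1 and 2 were in row 1 of the slide and the other 4 arrays in row 2. A level is the log2 signal of a probe with the 75th percentile of its array subtracted. A fold change is the antagomir mean minus the control mean of these levels, with its standard error (SE), and n is 3 in each group. The number of arrays limits the precision.

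No carrier passed the test, but most lay somewhat higher with the antagomir. Of 41 carriers, 30 were higher and 11 lower, with a median of 0.31, a 1.24-fold difference, while 62.6% of all genes were higher, with a median of 0.09. Under scaling by each array's median, which moves the median of all genes to −0.38, 7 carriers were higher and 34 lower (median −0.16). Relative to the median of all genes the carriers' median stood 0.22 higher under both scalings and 0.15 higher with quantile scaling, where 24 were higher and 17 lower. It stood 0.044 higher without control array 2, where the median was 0.091.

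With limma and Benjamini-Hochberg adjustment over all genes tested, 0 carriers passed (0.013% of all genes did), and their adjusted p ran from 0.654 to 0.957. Unadjusted, 3 carriers had a limma p under 0.05, a share of 7.32% against 7.21% of all genes. They were Slc25a39 and Slc25a23, both higher (3.05% of all genes), and Slc25a1, lower (4.16% of all genes). In 4 carriers every antagomir array lay above every control array, as in 8.78% of all genes, and in 2 every one lay below, as in 6.93%. These shares were 9.76% and 4.88% of the carriers, near the background. Differences of at least 1.5-fold were found in 3 carriers, all higher, whereas 15.1% of all genes differed by that much in either direction. In bulk tissue fewer cells of a type and less RNA per cell cannot be told apart.

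**Figure D1:**
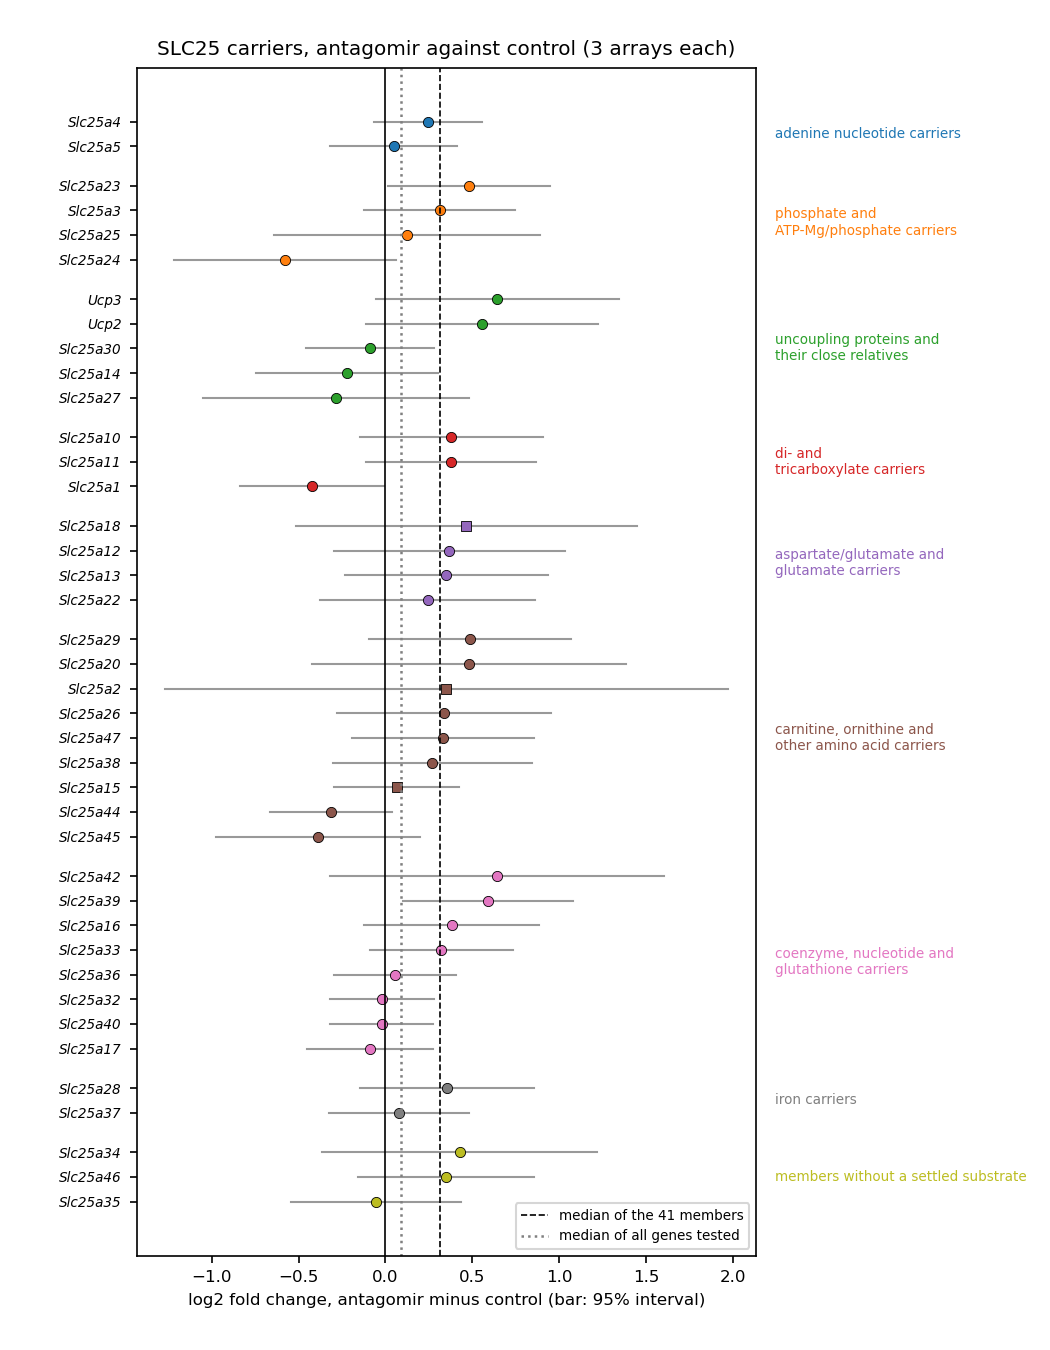
Log2 fold change, antagomir minus control, of 40 of the 41 carriers tested, ordered by role, with 95% intervals from limma (n = 3 each), squares for genes not above background on all arrays, and lines at the medians of the 41 carriers (dashed) and of all genes (dotted). The points run from −0.58 to 0.64, 29 lie right of 0 (7 under scaling by each array's median), and the intervals of 37 include 0.

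The adenine nucleotide carriers exchange ADP from outside the mitochondrion for ATP made within. Slc25a4 (ANT1), the form of heart and skeletal muscle, had levels of 9.26, 9.17 and 9.29 on antagomir arrays 1 to 3, against 8.98, 8.92 and 9.09 on control arrays 1 to 3. The groups did not overlap, and the spread was 0.061 (SD) with the antagomir and 0.083 in controls. The fold change was 0.25 (SE 0.13), a 1.19-fold difference with limma adjusted p = 0.691, but it was −0.00036 with quantile scaling and −0.23 with median scaling. Slc25a5 (ANT2), found in most tissues, had levels of 5.36, 5.55 and 5.16 with the antagomir, against 5.31, 5.29 and 5.34 in controls. These overlapped (0.046, SE 0.15), and the value was −0.055 with quantile scaling and −0.43 with median scaling. Slc25a31 (ANT4), known from male germ cells, was above background on antagomir array 3 only and was not tested.

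Phosphate and ATP-Mg/phosphate carriers supply phosphate to the matrix and set its pool of adenine nucleotides. Slc25a3, the phosphate carrier, had levels of 7.10, 6.90 and 7.04 with the antagomir, against 6.78, 6.40 and 6.91 in controls. Antagomir array 2 lay just under control array 3 (0.31, SE 0.18, but 0.16 without control array 2 and −0.16 with median scaling). Its other probe gave 0.48 (SE 0.28). Calcium regulates the ATP-Mg/phosphate carriers Slc25a23 and Slc25a24, which had fold changes of opposite sign. Slc25a23 had levels of −1.96, −2.28 and −1.75 on the antagomir arrays and −2.35, −2.41 and −2.67 on the control arrays, with every antagomir array above every control array. Its fold change was 0.48 (SE 0.19), 1.40-fold with limma adjusted p = 0.686 and an interval of 0.01 to 0.95, and 0.27 with quantile scaling. Slc25a24 had levels of 0.16, 0.75 and −0.00059 with the antagomir, against 0.78, 1.22 and 0.65 in controls, so that antagomir array 2 overlapped the controls. At −0.58 (SE 0.26), controls 1.49-fold above the antagomir arrays with limma adjusted p = 0.691, it had the largest negative value of the 41 carriers. Slc25a25 varied within each group more than between them (0.13, SE 0.31), and Slc25a41, whose probe lies 11.5 kb from that of Slc25a23 on chromosome 17, was above background on antagomir array 3 only.

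Ucp2 and the brighter Ucp3 probe had the same high and low arrays, while on the other Ucp3 probe control array 1 was the highest control. Ucp3, the uncoupling protein of skeletal muscle and heart, had levels of 1.90, 2.01 and 1.78 on the antagomir arrays, against 1.23, 0.72 and 1.81 on the control arrays. Control array 3 lay among the antagomir arrays and control array 2 far below them. The fold change was 0.64 (SE 0.29), 1.56-fold with limma adjusted p = 0.691, and 0.38 without control array 2. The second Ucp3 probe gave 0.87 (SE 0.32), with levels of −0.057, 0.21 and −0.088 on the antagomir arrays and −0.38, −1.52 and −0.65 on the control arrays, which did not overlap. Ucp2, found in many tissues and in immune cells, had levels of 1.81, 1.91 and 1.65 with the antagomir, against 1.22, 0.74 and 1.75 in controls. The same control arrays were high and low as for the brighter Ucp3 probe (0.55, SE 0.27, and 0.30 without control array 2). When the row of the slide was fitted as a block, so that control array 3 was the sole control set against the antagomir arrays, Ucp3 was at 0.09 and Ucp2 at 0.039.

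Ucp1 was not tested, since only antagomir array 3 and control array 3 were well above background. Its unscaled signals were 5.08, 2.93 and 45.5 on antagomir arrays 1 to 3, against 2.86, 3.15 and 38.3 on control arrays 1 to 3. The high values thus stood on the third array of each group, and no fold change is given. Markers of brown and white adipocytes, of which 7 of 9 were tested and all 7 higher (median 2.83), averaged 1.07, 3.03 and 2.84 on antagomir arrays 1 to 3 and −1.87, −0.013 and 1.88 on control arrays 1 to 3, relative to the control mean. In all 7 the groups overlapped. Their summed signal ran from 24476 to 30443 with the antagomir and from 18279 to 24227 in controls, in percent of the array's 75th percentile. This sum comes mostly from the brightest of them, Fabp4 (0.24, SE 0.18) and Cidea (0.28, SE 0.17), which differed far less than the median of the list. Lep, the white fat hormone leptin, and Elovl3, a fatty acid elongase of brown fat, were above background on no array. The part of fat in the values of Ucp1, Ucp2 and Ucp3 was not tested. The relatives of the uncoupling proteins were not higher. Slc25a14 was at −0.22 (SE 0.21, but −0.038 without control array 2 and 0.06 with the row of the slide as a block) and Slc25a27 at −0.28 (SE 0.31, but −0.16 without control array 2 and 0.041 without antagomir array 2), and Slc25a30 lay within 0.1 of 0.

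Di- and tricarboxylate carriers link the citric acid cycle to the cytosol. Slc25a1, the citrate carrier that exports citrate for lipid synthesis, had levels of −0.24, 0.022 and 0.016 with the antagomir, against 0.26, 0.60 and 0.21 in controls. All antagomir arrays lay below all control arrays. The fold change of −0.42 (SE 0.17, limma adjusted p = 0.687, interval −0.84 to −0.01) put controls 1.34-fold above the antagomir arrays, and it was −0.30 without control array 2. Slc25a11, the oxoglutarate/malate carrier of the malate-aspartate shuttle, had levels of 7.75, 7.66 and 7.58 on the antagomir arrays and 7.39, 6.92 and 7.57 on the control arrays. The groups touched without overlapping (0.38, SE 0.20), and the value was 0.19 without control array 2, 0.22 with quantile scaling and −0.095 with median scaling. Slc25a10, the dicarboxylate carrier, was at 0.38 (SE 0.22), which became 0.22 without control array 2 and −0.0071 with quantile scaling. Slc25a21, the oxodicarboxylate carrier, was above background on no antagomir array and on control arrays 2 and 3 (not tested, and no fold is given).

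**Figure D2:**
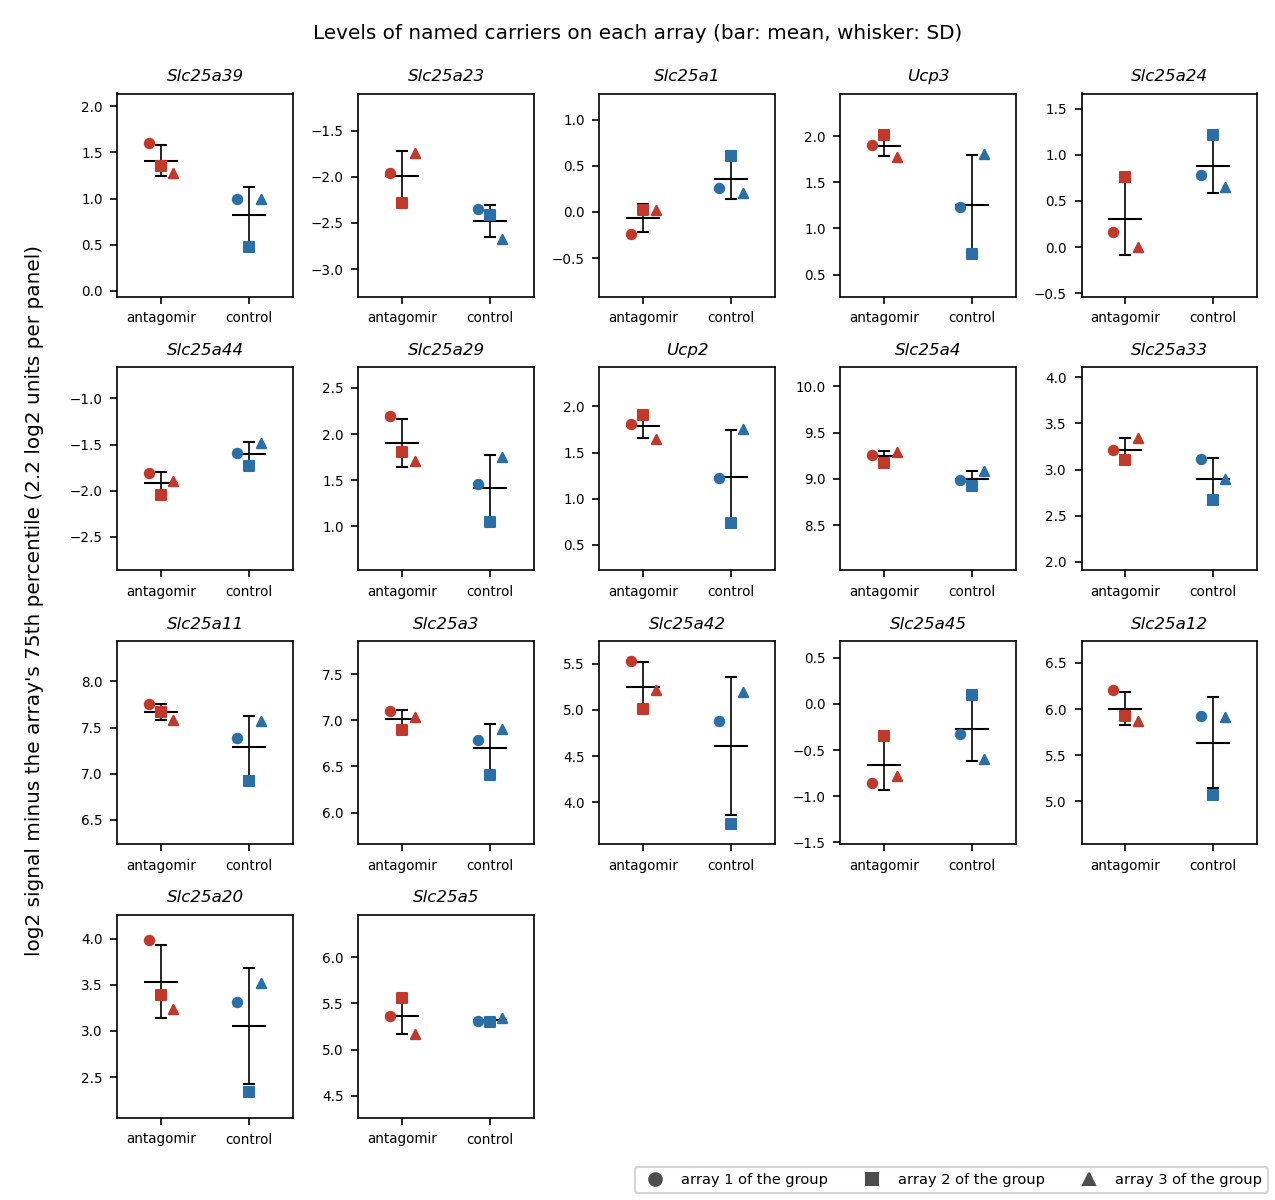
Levels (log2 signal with the array's 75th percentile subtracted) of the 17 carriers described by array, antagomir arrays left and control arrays right, with group means as bars and SD as whiskers. The 17 were chosen partly by small p and large fold change. In 6 of them the groups do not overlap, 4 higher and 2 lower with the antagomir. These are all such cases among the 41 carriers tested, or 9.76% and 4.88%, against 8.78% and 6.93% of all genes. Control array 2 is the lowest control for Ucp3 and Slc25a42.

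All 4 aspartate/glutamate and glutamate carriers were higher in the mean (median 0.36), against 3 with quantile scaling and 0 with median scaling, and in each the groups overlapped. Slc25a12 (aralar), the aspartate/glutamate carrier of heart and brain, had levels of 6.20, 5.93 and 5.87 with the antagomir, against 5.92, 5.07 and 5.92 in controls. Only control array 2 stood below the antagomir arrays. The fold change was 0.37 (SE 0.27), but 0.084 without that array and −0.10 with median scaling. Slc25a13 (citrin), its liver counterpart, was at 0.35 (SE 0.24), or 0.12 without control array 2 and −0.12 with median scaling. The glutamate carrier Slc25a22 was at 0.24 (SE 0.25), or 0.006 without control array 2 and −0.23 with median scaling. The other glutamate carrier, Slc25a18, was above background on 3 arrays only. Its unscaled signals were 11.6, 18.9 and 35.8 on the antagomir arrays and 22.0, 14.8 and 15.0 on the control arrays.

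Among carriers of carnitine, ornithine and other amino acids, 7 of 9 tested were higher in the mean (median 0.33), against 5 with quantile scaling and 2 with median scaling. Slc25a20, which exchanges acylcarnitine for carnitine in fatty acid oxidation, had levels of 3.98, 3.39 and 3.24 on the antagomir arrays, against 3.31, 2.34 and 3.52 on the control arrays. The groups overlapped, with control array 2 again lowest (0.48, SE 0.37, and 0.12 without it). Slc25a29, a carrier of basic amino acids, had levels of 2.2, 1.81 and 1.70 with the antagomir and 1.46, 1.05 and 1.75 in controls. Control array 3 reached into the antagomir range (0.48, SE 0.24, and 0.30 without control array 2). The neighbouring gene Slc25a47, whose probe lies 30.2 kb away on chromosome 12, was at 0.33 (SE 0.21), the S-adenosylmethionine carrier Slc25a26 at 0.34 (SE 0.25) and the glycine carrier Slc25a38 at 0.27 (SE 0.23). Without control array 2 these 3 were at 0.20, 0.082 and 0.076, and with median scaling at −0.14, −0.14 and −0.20.

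Slc25a45 had levels of −0.86, −0.35 and −0.78 with the antagomir, against −0.32, 0.10 and −0.59 in controls. Its groups overlapped, with control array 2 highest (−0.39, SE 0.24, and −0.20 without control array 2). Slc25a44 had levels of −1.81, −2.05 and −1.90 on the antagomir arrays, against −1.60, −1.74 and −1.48 on the control arrays, and the groups did not overlap. The fold change was −0.31 (SE 0.14, limma adjusted p = 0.691), −0.38 without control array 2 and −0.52 with quantile scaling. Its second probe gave 0.19 (SE 0.23), as described below. The ornithine carriers were dim. Slc25a15 was above background on 5 arrays, with 22.9 to 28.8 on the antagomir arrays and 28.6 to 30.7 on the control arrays as raw signals. Slc25a2 was so on 3 arrays, with raw signals of 12.5, 7.0 and 49.4 with the antagomir, against 14.9, 17.7 and 13 in controls. Slc25a48 was above background on antagomir arrays 1 and 3 and on no control array. Its raw signals were 16.3, 3.04 and 37.2 on antagomir arrays 1 to 3, against 3.05, 3.20 and 3.98 on control arrays 1 to 3. It was not tested.

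Carriers of coenzymes, nucleotides and glutathione were higher in 6 of 9, against 2 with median scaling, and include the smallest p of the family. Slc25a39, needed for import of glutathione into mitochondria, had levels of 1.60, 1.36 and 1.28 with the antagomir, against 1.00, 0.48 and 0.99 in controls. Every antagomir array lay above every control array. Its fold change was 0.59 (SE 0.20, interval 0.10 to 1.08), 1.5-fold with an unadjusted limma p of 0.026 and an adjusted p of 0.654. It was 0.42 without control array 2 and 0.12 with median scaling. Its relative Slc25a40 lay within 0.1 of 0, with levels from −0.33 to −0.22 on the antagomir arrays and from −0.30 to −0.23 on the control arrays. Slc25a42, which brings coenzyme A into the matrix, had levels of 5.53, 5.01 and 5.21 with the antagomir, against 4.88, 3.76 and 5.19 in controls. Control array 2 was more than 1 log2 unit below every other array (0.64, SE 0.39, and 0.22 without it). Slc25a33, a pyrimidine nucleotide carrier, had levels of 3.21, 3.10 and 3.34 on the antagomir arrays and 3.12, 2.67 and 2.90 on the control arrays. Control array 1 overlapped the antagomir arrays (0.32, SE 0.17, but 0.21 without control array 2 and −0.15 with median scaling), and its other probe gave 0.42 (SE 0.20). Slc25a16, linked to coenzyme A transport, was at 0.38 (SE 0.21, but 0.20 without control array 2 and −0.091 with median scaling).

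Both iron carriers, the mitoferrins, were higher in the mean, but lower with median scaling. Slc25a28 (mitoferrin 2), found in most tissues, was at 0.35 (SE 0.20, but 0.21 without control array 2 and −0.12 with median scaling), and Slc25a37 (mitoferrin 1), the erythroid form, lay within 0.1 of 0. Erythroid transcripts, 5 of 7 tested and all 5 higher (median 0.58), averaged −1.04, 2.33 and 0.49 on antagomir arrays 1 to 3, against −0.65, −0.12 and 0.77 on control arrays 1 to 3, and their part in the Slc25a37 value was not tested. Of the carriers with no settled substrate, Slc25a34 was at 0.43 (SE 0.32, but 0.091 without control array 2 and −0.045 with median scaling) and Slc25a46, a protein of the outer membrane, at 0.35 (SE 0.21, but 0.19 without control array 2 and −0.12 with median scaling). Slc25a43 was above background on antagomir array 3 only. A further 8 tested carriers above background on all arrays had fold changes between −0.091 and 0.13, with 3 higher and 5 lower. They were Slc25a25, Slc25a30, Slc25a35, Slc25a37 and Slc25a40, Slc25a17 of peroxisomes, the folate and flavin carrier Slc25a32 and the pyrimidine nucleotide carrier Slc25a36.

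Ratios of related carriers within each array remove what both genes share. For 5 pairs the difference between groups was tested by an exact two-sided permutation test, whose smallest p is 0.1 with 3 against 3 arrays. The log2 ratio of Ucp2 to Ucp3 was −0.089, −0.10 and −0.13 on antagomir arrays 1 to 3, against −0.0077, 0.013 and −0.056 on control arrays 1 to 3. These did not overlap, and the difference was −0.091 (SE 0.023, exact permutation p = 0.1, 0.5 adjusted over 5 pairs). The Ucp3 value in this ratio was that of its brighter probe, and with its other probe the ratios of the groups overlapped. The nearest probes of Ucp2 and Ucp3 lie 13.5 kb apart on chromosome 7, and the Ucp3 probe among them is not the one in the ratio. The ratio of Slc25a5 to Slc25a4 differed by −0.20 (SE 0.15, exact permutation p = 0.4), that of Slc25a13 to Slc25a12 by −0.018 (SE 0.082, exact permutation p = 0.7) and that of Slc25a37 to Slc25a28 by −0.27 (SE 0.31, exact permutation p = 0.4). Slc25a22 over Slc25a18 differed by −0.22 (SE 0.56, exact permutation p = 0.8). Adjusted values of these 4 were 0.667 to 0.8, and a p that misses the threshold does not show that the ratios were alike.

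Several carriers had more than 1 probe, which tests a value within the same arrays. Of 8 genes with more than 1 tested probe, 6 had the same sign on both. For Slc25a37 the values were 0.079 (SE 0.17) and −0.17 (SE 0.22), both small against their error. For Slc25a44 the probe shown above, with 38.3% purines, had unscaled signals of 103, 87.7 and 106.7 with the antagomir, against 146, 137 and 151 in controls. Its other probe, at chr3:88214562-88214621 on the minus strand with 58.3% purines, had unscaled signals of 94.9, 65.7 and 122 with the antagomir. Those of the controls were 100.1, 90.2 and 92.8. The 75th percentiles used for scaling were lower on the antagomir arrays (359 to 397) than on the control arrays (421 to 456). Once scaled, the second probe had levels of −1.92, −2.47 and −1.70 with the antagomir, against −2.14, −2.34 and −2.18 in controls. Its fold change was thus 0.19, against −0.31 for the first probe. On this second probe the highest signal was that of antagomir array 3. The carriers above background on that array alone, Slc25a31, Slc25a41 and Slc25a43, had probes of 53.3%, 55.0% and 45.0% purines. The part of probe composition in these values was not tested.

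**Figure D3:**
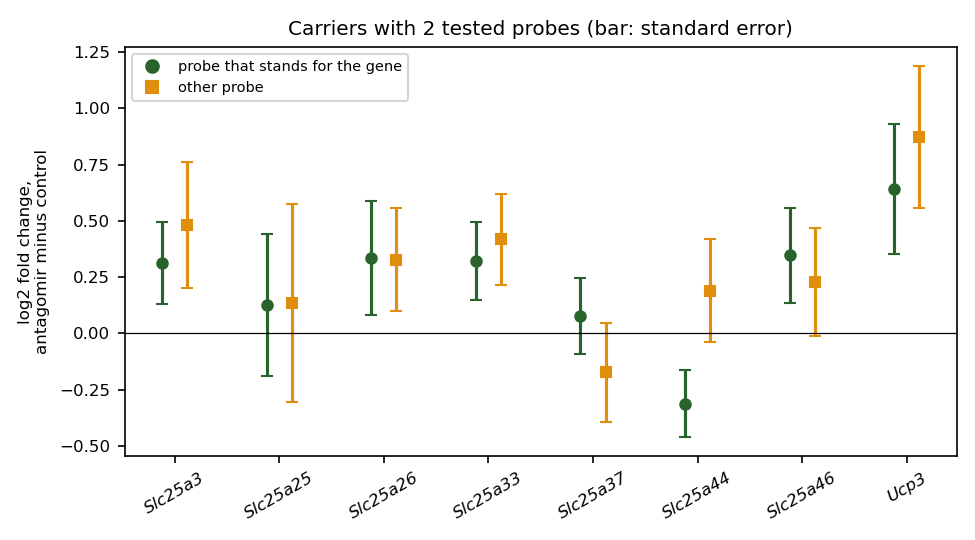
Log2 fold changes, antagomir minus control, of both probes of each carrier with more than 1 tested probe, with standard errors. In 6 of 8 genes both probes lie on the same side of 0, and Slc25a37 and Slc25a44 have a probe on each side.

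Genes that work with the carriers also lay mostly higher in the mean, as did 62.6% of all genes. All 12 tested partners of carriers, which supply or use their substrates, were higher (median 0.35), against 11 with quantile scaling and 1 with median scaling. Of these 12, 0 passed by limma and 1 had an unadjusted limma p under 0.05, against 7.21% of all genes. Ckmt2, the mitochondrial creatine kinase that takes ATP from Slc25a4, had levels of 9.45, 9.33 and 9.45 with the antagomir, against 9.05, 8.80 and 9.13 in controls. The groups did not overlap (0.42, SE 0.15, limma adjusted p = 0.669). Mdh2, malate dehydrogenase of the matrix, was at 0.31 (SE 0.15), Got1, the cytosolic aminotransferase of the malate-aspartate shuttle, at 0.43 (SE 0.24), and Crat, carnitine acetyltransferase, at 0.72 (SE 0.33). Among 16 genes of the machinery that imports carriers, 15 were higher (median 0.20), against 12 with quantile scaling and 0 with median scaling, and Agk, a subunit of the TIM22 complex, was at −0.083. Tomm40, the pore of the outer membrane, was at 0.22 (SE 0.14) and did not overlap between groups. Of 25 other genes of mitochondrial membrane transport, 16 were higher (median 0.20), against 14 with quantile scaling and 1 with median scaling, among them the pyruvate carrier subunits Mpc1 (0.34, SE 0.19) and Mpc2 (0.39, SE 0.20) and the transporter Abcb8 (0.56, SE 0.24). Sfxn3, of the sideroflexins, was at −0.60 (SE 0.25) and Mtch1, of the outer membrane, at −0.29 (SE 0.15). In both lists limma passed 0 genes, with 0 below 0.05 before adjustment.

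The carriers and markers of heart muscle had the same highest and lowest arrays. The mean of the 41 carriers, relative to the control mean, was 0.26, 0.10 and 0.20 on antagomir arrays 1 to 3, against 0.083, −0.19 and 0.11 on control arrays 1 to 3. Markers of cardiomyocytes were higher for 10 of 10 (median 0.22), against 4 with quantile scaling and 0 with median scaling. They had means of 0.30, 0.16 and 0.25 on the antagomir arrays and 0.082, −0.21 and 0.13 on the control arrays. In both, antagomir array 1 was highest and control array 2 lowest. The machinery that imports carriers had another order among the antagomir arrays, with means of 0.23, 0.24 and 0.022, against 0.071, −0.20 and 0.13 on the control arrays, and control array 2 again lowest. The cardiomyocyte markers' summed signal ran from 459441 to 501123 with the antagomir and from 386142 to 447927 in controls, in percent of the array's 75th percentile. Markers of fibroblasts and scar were lower in the mean for 10 of 10 (median −1.88). Their means were −1.93, −1.25 and −2.14 on the antagomir arrays and −0.071, 0.40 and −0.33 on the control arrays. The groups stood apart in 7 of them, from Postn (−3.71, SE 0.66) to Sparc (−0.67, SE 0.22). Of all genes tested, 6.93% had groups that stood apart with the antagomir lower. In Dcn (−0.0016, SE 0.17), Pdgfra (−0.35, SE 0.21) and Tcf21 (−0.53, SE 0.36) the groups overlapped. The summed signal of all 10 ran from 54835 to 82644 with the antagomir and from 105212 to 136932 in controls. None of the 10 was at background. The part of muscle and scar cell shares in the carriers' values was not tested.

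Other cell types differed between single arrays. Atrial genes, of which 4 were tested, averaged −0.93, 4.24 and 5.57 on antagomir arrays 1 to 3, against −1.30, −0.36 and 1.66 on control arrays 1 to 3. Sln, Myl7 and Myl4 were higher in the mean and Nppa lower (−1.71, SE 0.99), and the groups overlapped in each. Their summed signal was 3296, 39505 and 81431 with the antagomir, against 39333, 63248 and 39432 in controls, in percent of the array's 75th percentile. Macrophage markers averaged −0.20, 0.69 and −0.38 on the antagomir arrays and 0.16, −0.16 and −0.008 on the control arrays. Endothelial markers were lower for 5 of 6 (median −0.098), and 3 of 7 fast skeletal muscle genes were tested, 2 of them higher. In the 8 lists of cell type markers limma passed 0 genes. Before adjustment 7 of 10 fibroblast, 1 of 7 adipocyte and 1 of 3 fast skeletal muscle genes were below 0.05, against 7.21% of all genes.

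**Figure D4:**
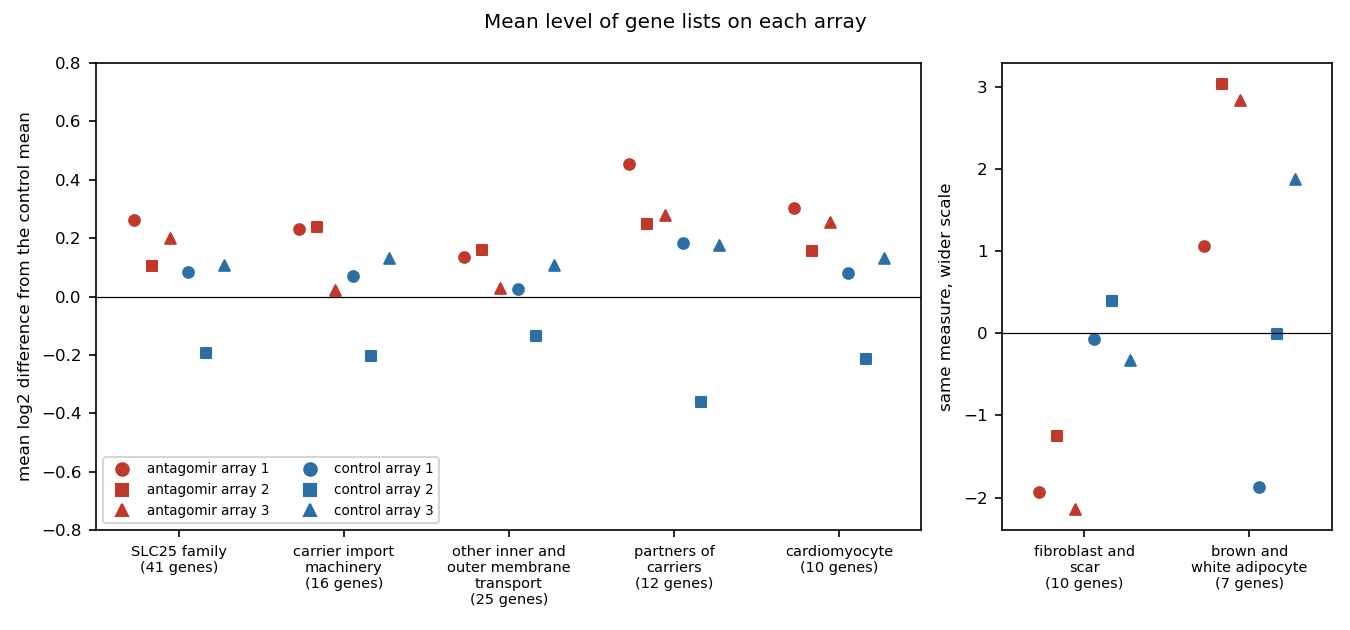
Mean log2 difference from the control mean on each array for the carriers, related mitochondrial lists and cardiomyocyte markers (left panel) and for fibroblast and adipocyte markers (right panel, wider scale), antagomir arrays left of control arrays in each list. The carriers and the cardiomyocyte markers both have control array 2 as the lowest point, at −0.19 and −0.21.

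Promoter windows of 300 bases around a start, most of each before it, were found in RefSeq (GRCm38.p6) for 37 of the 47 carriers, 46 windows in all. The motif of the respiratory gene regulator NRF1, searched on both strands as GCGCA, any base and GCGC, was in 2 windows, those of Slc25a3 and Slc25a31, or 4.35% against 4.60% of all 32851 windows. The motif of estrogen-related receptors, searched as TNAAGGTCA, was in 0 of 46 windows, and 1.28% of all windows hold it. CCAAT was in 21 windows of 18 carriers, 45.7% against 37.4% of all windows. None of these 3 motifs contains another, and a match describes the window only.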

How the data were processed

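Per the file headers, Agilent Feature Extraction 10.7.1.1 wrote the scanner files, which hold each spot's processed signal as an intensity, corrected for background by that software and not scaled between arrays. Flags for background, saturation and outliers are other values (0 or 1) per the file headers, and 0 spots were saturated. The authors' deposited table holds the same intensities and normalised log2 values, and its method is not given in the sources used here.

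Control spots were dropped, as were 154 to 233 outlier spots on each array, and the log2 values of a probe's spots were averaged. Of 55681 probes, 20 lacked a usable spot on at least 1 array and were dropped. Names were updated through a mouse gene table (GRCm38.p6): 26574 probes by accession, 2600 by symbol and 492 by synonym, while 25995 kept the file's name. From each log2 processed signal the 75th percentile of its array was subtracted, and the brightest tested probe stood for its gene. The comparison used limma 3.58.1 under R 4.3.3 (two-sided, Benjamini-Hochberg adjusted p under 0.05), checked on simulated data. Permutation tests, tables and figures used Python 3.11.15 with pandas 2.3.3, numpy 2.4.6, scipy 1.17.1 and matplotlib 3.10.9. Where a group was above background on no array, no fold change is given.

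The members, gene lists and tests were chosen with earlier results of these data known. Values per array are given for the 10 carriers with the smallest p, those with the 3 largest fold changes in each direction and 9 carriers known for heart energy supply. The others have their own fold change at 0.2 or more in size, a limit set after the values were seen. A few smaller ones are also given. Replicate numbers were not treated as pairs, since the labels give no pairing. Same-numbered arrays' deviations from their group means correlated at 0.22, 0.14 and −0.049 over genes. Arrays of unlike number correlated at −0.28 to 0.17, and these values do not settle whether the samples were paired. The values of 1 tested carrier are not reported here.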

Additional observations from a re-analysis of the deposited data

How the results depend on the processing

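In 19 other settings 0 carriers passed limma's adjusted threshold, and of 383 values of single carriers that a setting moved at all, 29 turned their sign. The carriers' median of 0.31 became 0.11 (24 higher) with normexp background correction, an offset of 50 and quantile scaling, 0.12 (24 higher) with quantile scaling, 0.12 (25 higher) with the authors' table, −0.16 (7 higher) with median scaling, and 0.049 (26 higher) when the row of the slide was the block and control array 3 the sole control set against the antagomir arrays. Leaving out each array gave medians of 0.091 (without control array 2) to 0.38 and counts of 29 to 31 higher. The cause was not tested. With the replicate number as a block the median was 0.31 with 30 higher and 0 passing, and over all genes 0 passed, against 3 without the block. Scaling by probes above background on all arrays, chosen after seeing the data, gave 0.32. Over all genes 199 passed with median scaling and 8 with array weights. With median scaling the described carriers all had the same SE of 0.60, so differences of the size found in them could not pass there.

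With median scaling 16 of the described values turned: Slc25a4 −0.23, Slc25a33 −0.15, Slc25a13 −0.12, Slc25a11 −0.095, Slc25a12 −0.10, Slc25a28 −0.12, Slc25a16 −0.091, Slc25a47 −0.14, Slc25a26 −0.14, Slc25a38 −0.20, Slc25a46 −0.12, Slc25a3 −0.16, Slc25a22 −0.23, Slc25a34 −0.045, Slc25a10 −0.093 and Slc25a5 −0.43. Median scaling moves the fold change of every gene by the same amount, and the median of all genes went from 0.09 to −0.38. The 16 turned values thus share this shift and are not separate results. With normexp Slc25a4 was at −0.017, Slc25a10 at −9.1e-05 and Slc25a5 at −0.068. With quantile scaling they were at −0.00036, −0.0071 and −0.055, and with the authors' table Slc25a10 and Slc25a5 were at −0.0076 and −0.056. With the slide row blocked Slc25a14 was at 0.060, Slc25a22 at −0.028 and Slc25a34 at −0.042. With an array left out Slc25a27 ran from −0.51 to 0.041 and Slc25a5 from −0.050 to 0.14. The ratio of Slc25a22 to Slc25a18 turned to 0.15 with normexp, 0.61 with quantile scaling and 0.61 with the authors' table, and ran from −0.72 to 0.18 with an array left out. That of Slc25a13 to Slc25a12 turned to 0.024 with quantile scaling and 0.024 with the authors' table, and ran from −0.072 to 0.034. Signal over background limits Slc25a2, Slc25a15, Slc25a18 and the 6 carriers not tested.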
